A study of Mus musculus with 3 samples.

Results

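Multi-intron retention events are places where a transcript keeps 2 or more neighbouring introns inside 1 uninterrupted exon, while other transcripts of the locus splice them out. They were taken as the rows that the deposited event tables mark as multi-intron retention, with identical rows dropped. In each library the spliced form of an event was the highest row marked as its spliced counterpart at the same locus and strand with an overlapping position. For the 315 events with several such rows, it can be a different row in each library. Over the 3 libraries there were 707 distinct events on 545 retained exons in 461 genes, out of 93242 distinct events of every kind. The libraries listed 476, 446 and 476 of them in replicates 1, 2 and 3.

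The 3 libraries form 1 group of normal liver, labelled as healthy, WT, male and C57BL/6, an inbred laboratory strain, with no age, treatment or other allele given. The series as a whole concerns mouse liver cancer, and tumour samples were not analysed here. Nothing in the labels ties each replicate to a mouse of its own, so p-values measure only the spread between these samples, which may be technical. Values are FPKM, a fragment level per transcript length and per library size, added up over all transcripts holding the event. The tables leave out events at 0 and give no read counts, so depth is unknown.

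Introns are removed by the spliceosome, which reads a donor site at the 5′ end and an acceptor site at the 3′ end of each intron. A transcript that keeps introns may be a precursor not yet processed, may stay in the nucleus as a detained transcript, or may reach the cytoplasm, where a premature stop codon can send it to nonsense-mediated decay. Genes for SR proteins, CLK kinases and other splicing factors are known for keeping introns in part of their own transcripts. A retained transcript and a spliced one are both RNA of the same gene, so a level of the retained form is not a level of protein.

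Liver identity was checked on 43 genes, which are markers of liver and blood cell types and 3 nuclear RNAs. Of 7 hepatocyte markers 6 were listed, with Alb, the albumin gene, at 25367, 30592 and 27018 FPKM in its highest event, and Ttr was not listed. Lrat, Malat1 and Neat1 were not listed either. The 3 erythroid markers summed to 245, 665 and 199 FPKM, and replicate 2 was high in both globins and not in Alas2. The part of globin RNA in the results was not tested. None of the 43 genes carried a multi-intron event, where 3.65% of all 12645 genes did. For a list of this size that is near the share over all genes, and genes that are not listed could not carry one. The libraries are labelled male, yet Xist, the RNA of the inactive X chromosome, had 65.7, 53.9 and 46.4 FPKM in its highest event, and none of 4 Y-linked genes was listed. Genes can be missing from these tables for other reasons, but this does not bear on Xist, which was listed in all 3 libraries. The male label is therefore in doubt, and each library is called by its label with this mismatch in view.

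The introns of 5 genes show what a retained stretch looks like, and were chosen to span the range of retention. Gcgr and Mars had more of the retained form than of the spliced form compared with it on average, and Ldhd was intermediate. Nr1h3 and Psme1 had retained shares under 1% of the highest overlapping spliced row and the retained form together. Sequences run 5′ to 3′ on the gene's strand, in lower case, with the first stop codon met in the reading frame of the upstream exon in capitals. They were read from GENCODE M21 transcripts, and their positions are on GRCm38.
Gcgr intron 1 of the event, chr11:120536168-120536244, plus strand: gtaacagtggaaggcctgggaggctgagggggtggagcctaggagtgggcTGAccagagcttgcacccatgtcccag
Gcgr intron 2 of the event, chr11:120536367-120536461, plus strand: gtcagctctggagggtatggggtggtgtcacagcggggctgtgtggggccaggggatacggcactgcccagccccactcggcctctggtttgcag
Mars intron 1 of the event, chr10:127296741-127296872, minus strand: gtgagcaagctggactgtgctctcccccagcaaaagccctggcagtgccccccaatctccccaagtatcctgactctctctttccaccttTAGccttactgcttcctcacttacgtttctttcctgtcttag
Mars intron 2 of the event, chr10:127296634-127296716, minus strand: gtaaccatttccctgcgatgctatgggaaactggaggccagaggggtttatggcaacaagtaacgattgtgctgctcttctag
Ldhd intron 1 of the event, chr8:111629146-111629280, minus strand: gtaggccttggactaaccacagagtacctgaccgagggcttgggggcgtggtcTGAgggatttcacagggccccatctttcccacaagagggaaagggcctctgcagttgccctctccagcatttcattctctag
Ldhd intron 2 of the event, chr8:111628721-111628985, minus strand: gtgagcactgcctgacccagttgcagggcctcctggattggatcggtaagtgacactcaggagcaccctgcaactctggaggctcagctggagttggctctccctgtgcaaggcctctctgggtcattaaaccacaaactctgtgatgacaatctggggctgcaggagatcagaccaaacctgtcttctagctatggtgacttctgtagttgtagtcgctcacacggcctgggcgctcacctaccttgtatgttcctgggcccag
Nr1h3 intron 1 of the event, chr2:91190642-91190738, minus strand: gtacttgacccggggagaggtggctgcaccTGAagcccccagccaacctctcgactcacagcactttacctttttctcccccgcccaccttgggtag
Nr1h3 intron 2 of the event, chr2:91190285-91190461, minus strand: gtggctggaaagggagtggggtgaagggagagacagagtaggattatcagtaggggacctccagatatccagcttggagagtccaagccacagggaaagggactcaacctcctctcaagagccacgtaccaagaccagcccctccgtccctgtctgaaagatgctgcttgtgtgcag
Psme1 intron 1 of the event, chr14:55579628-55579770, plus strand: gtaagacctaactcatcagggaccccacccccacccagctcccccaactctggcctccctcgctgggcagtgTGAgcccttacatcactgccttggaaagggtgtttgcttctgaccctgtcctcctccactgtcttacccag
Psme1 intron 2 of the event, chr14:55579834-55579930, plus strand: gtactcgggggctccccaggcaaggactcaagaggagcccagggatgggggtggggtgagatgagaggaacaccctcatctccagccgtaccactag
Psme1 intron 3 of the event, chr14:55580042-55580113, plus strand: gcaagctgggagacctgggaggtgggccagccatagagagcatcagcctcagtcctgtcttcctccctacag
Psme1 intron 4 of the event, chr14:55580160-55580329, plus strand: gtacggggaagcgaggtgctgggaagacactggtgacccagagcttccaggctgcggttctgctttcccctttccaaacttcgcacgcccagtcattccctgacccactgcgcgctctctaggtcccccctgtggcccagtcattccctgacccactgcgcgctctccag
Psme1 intron 5 of the event, chr14:55580428-55580594, plus strand: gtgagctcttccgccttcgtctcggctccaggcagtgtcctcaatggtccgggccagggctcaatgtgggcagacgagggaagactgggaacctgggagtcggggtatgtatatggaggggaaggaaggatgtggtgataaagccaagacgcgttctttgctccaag
All 13 introns end with ag, and 12 begin with gt. The third Psme1 intron begins with gc, a rare donor variant. In each of the 5 genes the reading frame met a stop inside the first retained intron, after 50 bases in Gcgr, 90 in Mars, 53 in Ldhd, 30 in Nr1h3 and 72 in Psme1.

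Gcgr encodes the glucagon receptor, through which hepatocytes sense fasting. Its retained exon lies inside the coding region at chr11:120536060-120536568 and matches an annotated processed transcript. The retained form had 13.95, 8.79 and 7.50 FPKM in replicates 1, 2 and 3, against 0.000257, 7.61 and 5.02 FPKM for the spliced form. The retained form was above the spliced form in every library, but by very different amounts, and the difference was not called (log2 ratio 2.64, SE 1.59, adjusted p = 0.200 in limma). The ratio was 0.39 without replicate 1, 3.85 without replicate 2 and 3.67 without replicate 3, so its size rests on the spliced value of replicate 1, which was near 0. The highest event of the gene had 89.3, 82.9 and 74.6 FPKM. The spliced rows therefore hold only part of the Gcgr transcripts, and a retained share below is a share of the 2 forms in the tables, not of the gene's output.

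Mars encodes the cytosolic methionyl-tRNA synthetase, which charges tRNA with methionine. Its retained form had 0.652, 0.536 and 0.798 FPKM, against 0.625, 0.393 and 0.372 FPKM for the spliced form, and the difference was not called (log2 ratio 0.45, SE 0.44, adjusted p = 0.403). The highest event of Mars had 9.42, 6.56 and 7.19 FPKM, so both forms hold only a small part of its transcripts. Ldhd, the mitochondrial D-lactate dehydrogenase, had 8.11, 8.34 and 5.66 FPKM retained, against 31.1, 35.3 and 39.5 FPKM spliced. The forms did not overlap, and the retained form was lower (log2 ratio -2.26, SE 0.34, adjusted p = 0.00494). Nr1h3 encodes LXRα, the oxysterol receptor that drives lipogenic genes. It had 0.00173, 0.000718 and 0.00153 FPKM retained, against 24.4, 28.9 and 21.8 FPKM spliced (log2 ratio -7.95, SE 0.31, adjusted p = 0.000266). Psme1, a subunit of the PA28 proteasome activator, kept 5 introns at once in 0.0429, 0.0437 and 0.0363 FPKM of transcript, against 40.1, 28.1 and 27.3 FPKM spliced (log2 ratio -7.80, SE 0.32, adjusted p = 0.000266). Against only the spliced rows with the same start and end as the Psme1 event, the log2 ratio was -3.39 (SE 0.83, adjusted p = 0.0246), so the size of the Psme1 difference depends on which spliced transcripts are taken.

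Most retained forms were scarce. The median listed multi-intron event had 0.622, 0.525 and 0.556 FPKM in replicates 1, 2 and 3, against 0.914, 0.793 and 0.806 FPKM for single-intron retention events. At least 1 FPKM was reached by 36.8, 34.3 and 35.9% of the listed multi-intron events, and 28.8, 31.6 and 31.1% were under 0.1 FPKM. Of the 707 events, 277 were listed in all 3 libraries, 137 in 2 and 293 in 1. The share listed in all 3 was 39.2%, against 40.7% of 4249 single-intron events.

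A spliced form was listed in some library for 617 of the 707 events, and for 90 it was listed in none. Both forms were listed in every library for 230 events, and 224 of these, on 163 retained exons in 151 genes, reached the minimum of 1 FPKM for the mean of retained plus spliced. The comparison of forms was made on these 224, which are the events detected throughout and not a sample of all 707. The ratio of the forms was taken within each library as log2((retained + 0.1)/(spliced + 0.1)), which understates the ratio of events under 0.1 FPKM. Its mean was tested against 0 in limma, with Benjamini-Hochberg adjustment at 0.05 over all 1612 retention events tested, multi-intron and single-intron together.

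The retained form was lower than the spliced form in 170 of the 224 multi-intron events, or 75.9%, on 127 exons in 118 genes. Over all 1612 retention events tested, 66.9% were called lower. The retained form was higher in 5 multi-intron events, or 2.23%, on 4 exons in 4 genes, against 3.16% of all events tested, and 49 were not called. The median log2 ratio was -3.81 over multi-intron events and -2.69 over the 1388 single-intron events. The median retained form had 0.344 FPKM over multi-intron events and 0.928 over single-intron events, while the spliced forms were nearer, at 5.25 and 6.12 FPKM. As in any bulk tissue, fewer cells of a type and less RNA per cell cannot be told apart.

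**Figure D1:**
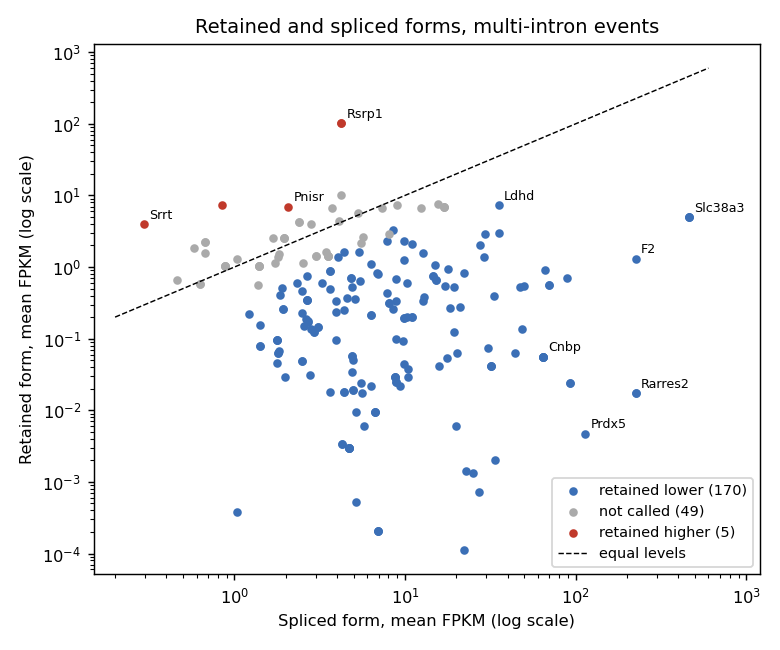
Mean FPKM over 3 libraries of the retained form (vertical, log scale) and of the spliced form (horizontal, log scale) for the 224 multi-intron events tested. The dashed line marks equal levels; 170 events in blue were called lower in the retained form, 5 in red higher, and 49 in grey were not called.

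The retained share, retained over retained plus spliced, had a median of 2.53, 3.72 and 3.31% over the multi-intron events in replicates 1, 2 and 3, a mean of 3.19 ± 0.604% (SD, n = 3). The single-intron median was 13.2, 11.2 and 10.6%, a mean of 11.7 ± 1.38%. The multi-intron median was lower by 10.7, 7.50 and 7.29 percentage points in the 3 libraries. An exact two-sided sign-flip permutation test gave p = 0.25, the smallest that 3 libraries allow, so the design cannot place this difference past 0.05. The middle of the multi-intron distribution was wide, with quartiles of 0.494 and 23.4%. The share stayed under 1% in every library in 58 multi-intron events, or 25.9%, against 187 single-intron events, or 13.5%. It was above 50% in every library in 15 multi-intron events and below 50% in every library in 180.

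**Figure D2:**
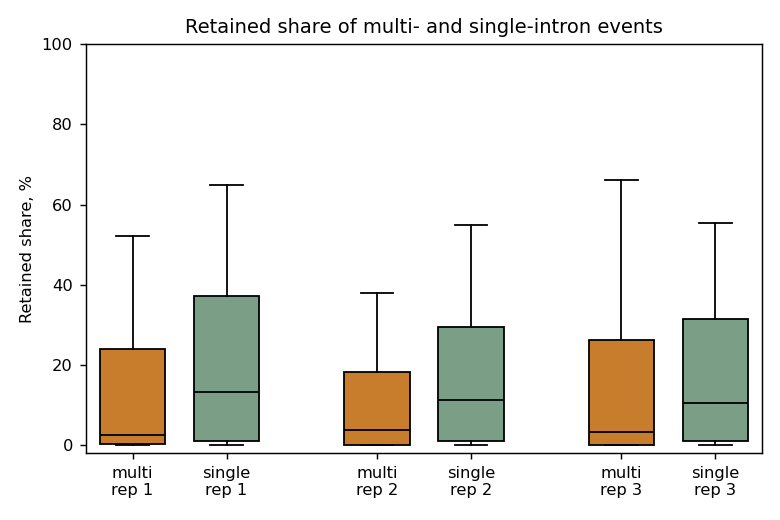
Retained share in percent for 224 multi-intron and 1388 single-intron events in each library; boxes span the quartiles with a line at the median, and whiskers reach the 10th and 90th percentiles. Multi-intron medians of 2.53, 3.72 and 3.31% lie below the single-intron medians of 13.2, 11.2 and 10.6% in all 3 libraries.

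The share moved with the level of the spliced form. Where the spliced form had at most 5 FPKM, the median share averaged 13.4 ± 1.23% in multi-intron events (109 events) and 25.5 ± 4.06% in single-intron events (591 events). Between 5 and 20 FPKM the shares were 2.18 ± 0.639% and 8.12 ± 0.723% (75 and 538 events), and above 20 FPKM 0.174 ± 0.0511% and 1.70 ± 0.222% (40 and 259 events). The spliced form is also the denominator of the share, and its part in this order was not tested. Multi-intron events were below single-intron events in each class, and also as medians over the 69 genes that hold a single-intron event on another exon, at 2.46, 3.59 and 3.30% against 8.15, 7.82 and 6.65%. Paired within these genes, the median difference was -0.576, -0.113 and 0 percentage points, and the multi-intron share was lower in all 3 libraries in 26 genes and higher in 20.

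Events that kept more introns had lower shares. The median share averaged 4.26 ± 0.470% for 166 events spanning 2 introns, 1.07 ± 0.200% for 24 spanning 3, and 0.278 ± 0.125% for 9 spanning 4 or more (SD, n = 3 libraries each). Events on the same exon repeat its values, and the exons in each class were not counted. The smaller classes may therefore rest on few exons. For 25 events the number of introns could not be read from the tables. All 9 events spanning 4 or more introns were called lower, at a median spliced level of 8.70 FPKM, against 5.17 FPKM for events spanning 2. The share by total retained length ran the other way, at 1.499 ± 0.0958% up to 500 bases (91 events), 2.20 ± 1.04% from 500 to 1000 (43), 11.7 ± 5.11% from 1000 to 2000 (40) and 15.9 ± 11.8% above 2000 bases (25). The longest class spread from 3.93 to 27.6% between libraries.

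Splicing factors and their regulators were the second most frequent carriers among the lists. The lists were chosen with earlier results of these data known, so their counts are descriptions and not independent support. A multi-intron event was carried by 33 of the 99 such genes that the tables hold, or 33.3%, against 3.65% of all 12645 genes, and their median highest event was 12.4 FPKM against 3.30 FPKM over all genes. Among genes known to detain introns in other mouse cells, 11 of 17 had an event, or 64.7%, at a median of 15.7 FPKM, and that list overlaps the splicing list. Of their 11 tested events, 1 was lower, 3 were higher and 7 were not called, beside 75.9% lower and 2.23% higher over all tested multi-intron events. The 3 higher events are a pair on 1 Rsrp1 exon, with the same values, and 1 of Pnisr. The expression level of these genes moves with the counts, and its part was not tested. Of the splicing factors' 27 tested events, 12 were lower, the same 3 higher and 12 not called, with a median log2 ratio of -1.08, against -3.81 over all multi-intron events.

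Rsrp1, an arginine and serine rich nuclear protein, had the most abundant retained form with a spliced partner. It had 122, 91.2 and 92.0 FPKM retained at chr4:134925293-134926818, against 4.08, 2.29 and 6.32 FPKM spliced. The forms did not overlap, and the share was 96.0 ± 2.11% (log2 ratio 4.66, SE 0.40, adjusted p = 0.00106), with 2 events on that exon counted among the 5. The gene's highest event had 149, 111 and 116 FPKM. Pnisr, another serine and arginine rich protein of nuclear speckles, had 6.08, 7.04 and 7.75 FPKM retained, against 3.31, 1.30 and 1.60 FPKM spliced (log2 ratio 1.81, SE 0.44, adjusted p = 0.0221). The Pnisr call was lost without replicate 2 (adjusted p = 0.079), without replicate 3 (adjusted p = 0.084) and with unlisted values taken as 0 (adjusted p = 0.060).

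None of the events of the CLK kinases, which phosphorylate SR proteins, was called. Clk1 had 7.60, 4.25 and 5.13 FPKM retained, against 6.97, 3.38 and 5.55 FPKM spliced (share 52.0 ± 3.82%, adjusted p = 0.756). Clk4 had 7.40, 7.67 and 5.12 FPKM retained, against 3.38, 5.04 and 2.85 FPKM spliced (share 64.4 ± 4.17%, adjusted p = 0.066). For Clk4 the retained form was above the spliced form in each library, and the adjusted p missed 0.05. Clk2 had 1.34, 1.07 and 1.06 FPKM retained, against 1.87, 2.21 and 1.10 FPKM spliced, so its retained form was below the spliced form in each library (adjusted p = 0.336). Clk3 changed order between libraries, with shares of 83.0, 20.5 and 82.9%. Hnrnph1, which binds G-rich RNA, had 5.92, 8.91 and 4.91 FPKM retained, against 4.24, 9.43 and 8.38 FPKM spliced, and was not called.

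The cyclins L, partners of CDK11 in splicing, had more spliced than retained form in every library. Ccnl1 had 3.52, 2.53 and 3.78 FPKM retained, against 9.72, 8.53 and 7.10 FPKM spliced (adjusted p = 0.0221). Ccnl2 had 4.41, 7.22 and 9.24 FPKM retained, against 5.88, 26.8 and 17.99 FPKM spliced, and was not called (log2 ratio -1.08, SE 0.42, adjusted p = 0.0772). Among the SR proteins, Srsf3 had 3 tested events on exons with different levels. Its highest had 4.49, 1.14 and 1.20 FPKM retained, against 8.48, 10.3 and 10.9 FPKM spliced (share 18.2 ± 14.3%, adjusted p = 0.0231). The other Srsf3 events, which share values, had 0.181, 0.223 and 0.182 FPKM retained, against the same spliced values (share 1.95 ± 0.265%, adjusted p = 0.000338). Srsf6 had 0.0125, 0.0173 and 0.0226 FPKM retained, against 3.65, 10.6 and 2.68 FPKM spliced. Esrp2, an epithelial splicing regulator of liver maturation, had 0.0992, 0.387 and 0.319 FPKM retained, against 16.7, 17.6 and 20.5 FPKM spliced. Snrpa1, Rbm5, Rbm3, Prpf40b and U2af1l4 were also lower in the retained form.

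**Figure D3:**
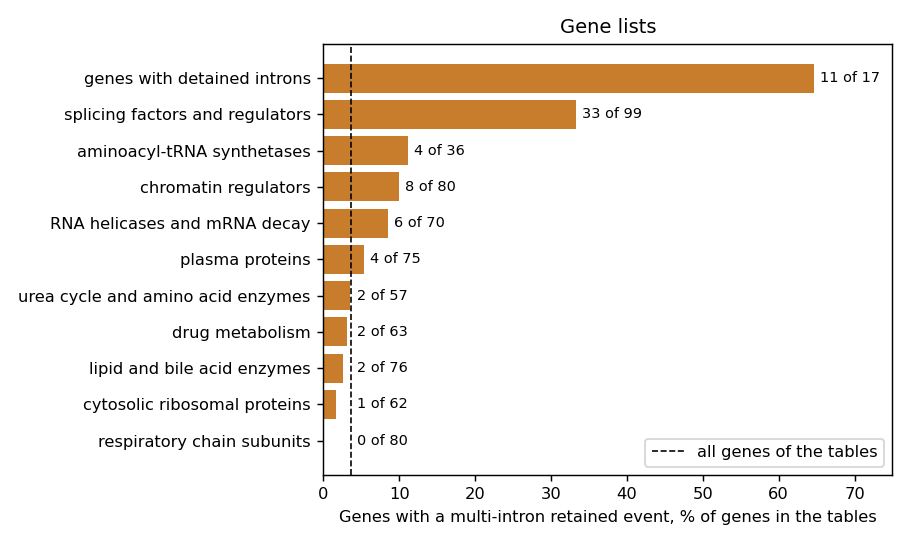
Percent of the genes of each list in the tables that carried a multi-intron event, with the dashed line at the 3.65% of all genes. Genes with detained introns in other mouse cells reach 64.7% and splicing factors 33.3%, and the respiratory chain list has 0. The lists were chosen with earlier results of these data known.

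Outside splicing, Srrt and Zscan26 were the other genes with a higher retained form. Srrt encodes ARS2, which links the cap-binding complex to RNA processing. It had 6.07, 3.86 and 2.04 FPKM retained, against 0.669, 0.0910 and 0.128 FPKM spliced (log2 ratio 3.54, SE 0.46, adjusted p = 0.00314). The gene's highest event had 13.3, 13.0 and 12.9 FPKM. Of the annotated coding transcripts with both introns, the one with the longest coding sequence holds only these 2 introns. The spliced form compared here need not be the main Srrt mRNA. Its values in replicates 2 and 3 were near the 0.1 FPKM added to both forms. The ratio was 1.89 with 1 FPKM added and 4.10 with 0.01 FPKM added, called in both. Zscan26, a zinc finger protein, had 10.2, 6.41 and 5.28 FPKM retained, against 2.33, 0.00231 and 0.200 FPKM spliced (log2 ratio 4.08, SE 0.84, adjusted p = 0.0137). Its ratio was 5.08 without replicate 1 and 3.12 without replicate 2. The highest event of Zscan26 had 15.9, 16.8 and 16.2 FPKM. Neither retained exon matched an annotated exon exactly.

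The metabolic and secretory lists carried an event in 2.63 to 5.33% of their genes, near the 3.65% of all genes. Their 5 tested events were all called lower, where 75.9% of all tested multi-intron events were. Plasma protein genes had 4 of 75 (5.33%, at a median highest event of 270 FPKM), in Apoc4, Itih2, F2 and F11. F2, prothrombin, had 0.976, 1.69 and 1.27 FPKM retained, against 239, 212 and 222 FPKM spliced (share 0.589 ± 0.193%, adjusted p = 0.000272). Urea cycle and amino acid enzymes had 2 of 57 (3.51%). Nags, which makes the activator of the urea cycle, had 0.362, 0.00191 and 0.00209 FPKM retained, against 17.5, 20.4 and 20.3 FPKM spliced (log2 ratio -6.85, adjusted p = 0.00132, with a ratio of -7.65 without replicate 1). Drug metabolism genes had 2 of 63 (3.17%), with Aox1, aldehyde oxidase, at 0.184, 0.369 and 0.0798 FPKM retained, against 5.64, 5.72 and 7.60 FPKM spliced (adjusted p = 0.00194). Lipid and bile acid genes had 2 of 76 (2.63%), Nr1h3 and Mlxipl, the gene of the carbohydrate sensor ChREBP.

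Among genes of general upkeep, aminoacyl-tRNA synthetases had 4 of 36 (11.1%), chromatin regulators 8 of 80 (10%) and RNA helicases and mRNA decay genes 6 of 70 (8.57%). Their tested events were called lower in 1 of 2, 3 of 4 and 2 of 2 cases, and none was called higher, beside 75.9% lower and 2.23% higher over all tested multi-intron events. Ddx47, a nucleolar helicase, had 0.0733, 0.0101 and 0.00385 FPKM retained, against 9.69, 11.5 and 9.86 FPKM spliced (adjusted p = 0.000312). Cytosolic ribosomal protein genes had 1 of 62 (1.61%), Rpl12, and respiratory chain subunits 0 of 80. Rpl12 had 0.00186, 0.252 and 0.941 FPKM retained, against 36.7, 29.5 and 33.4 FPKM spliced (log2 ratio -6.63, adjusted p = 0.00245, with a ratio of -5.70 without replicate 1 and -7.45 without replicate 3). The ribosomal and respiratory genes had high levels, with median highest events of 104 and 72.3 FPKM.

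With 0.1 FPKM added to both forms, the lowest ratios necessarily fall to events with an abundant spliced form, so their order mostly ranks that form. By retained share the order differed, with Adrm1 at 0.00266% and Prdx5 at 0.00465%, below Rarres2 at 0.00756%. Rarres2, the gene of the secreted chemoattractant chemerin, had 0.0251, 0.0119 and 0.0151 FPKM retained, against 271, 203 and 199 FPKM spliced (log2 ratio -10.89, SE 0.30, adjusted p = 0.000244). Prdx5, a peroxiredoxin, followed at a log2 ratio of -10.07, then Cers2, a ceramide synthase, at -9.55, and Cnbp, a nucleic acid binding protein, at -8.80. Dctn2, Slc38a3, Cope and Adrm1 lay between -8.36 and -8.06. Slc38a3, the hepatic glutamine transporter, was the uneven case, with 12.1, 2.91 and 0.000518 FPKM retained, against 451, 434 and 500 FPKM spliced. Its share of 1.09 ± 1.35% was not among the lowest, and its log2 ratio was -9.73 without replicate 1 and -6.19 without replicate 3. Abcb6, a porphyrin transporter, kept 3 introns in 0.521, 0.584 and 0.547 FPKM, against 15.3, 19.8 and 16.7 FPKM spliced (log2 ratio -4.73, adjusted p = 0.000387).

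Faah, the hydrolase of fatty acid amides, had 12.9, 7.24 and 2.90 FPKM retained, against 14.04, 14.2 and 18.4 FPKM spliced, and was not called (adjusted p = 0.125). Ganab, glucosidase II of glycoprotein folding, had 10.5, 7.07 and 4.76 FPKM retained, against 4.89, 10.6 and 11.5 FPKM spliced. Its forms changed order between libraries (adjusted p = 0.712).

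The ratios were correlated between libraries. Across the 224 events the Pearson correlation of the log2 ratio was 0.849 for replicates 1 and 2, 0.755 for replicates 1 and 3, and 0.794 for replicates 2 and 3. Events on 1 exon share values, and both forms come from 1 library. The share moved by under 5 percentage points between libraries in 104 events and by over 50 in 14 events of 8 genes, none of them called. Replicate 1 had the highest share in 7 of the 14 and replicate 3 in the other 7.

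**Figure D4:**
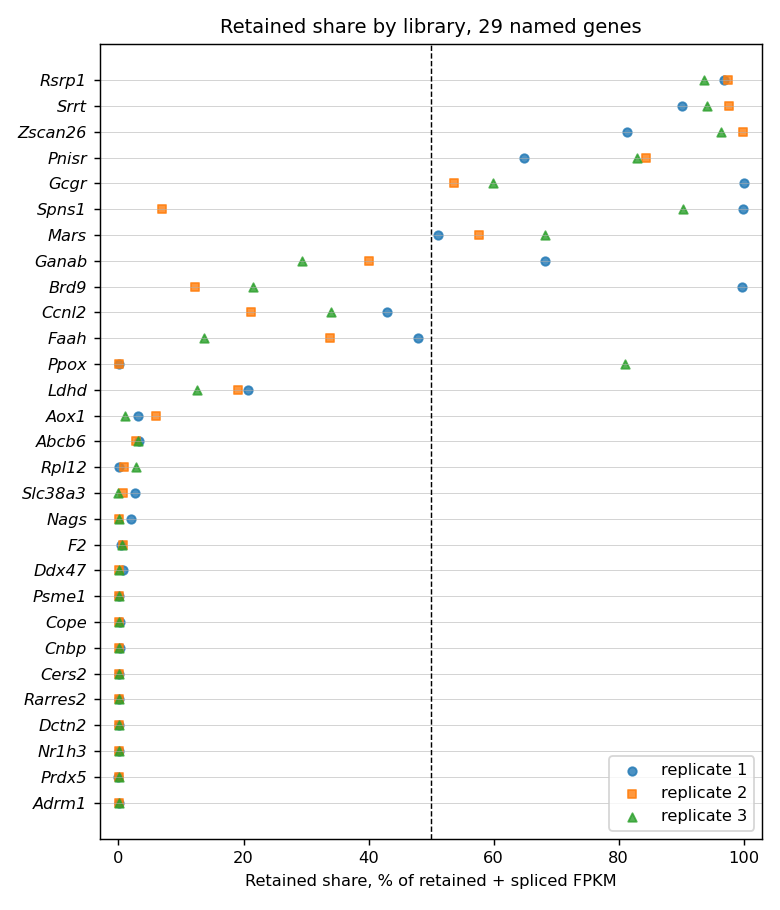
Retained share in percent (horizontal) of 29 named genes in each of the 3 libraries, 1 point per library, with a dashed line at 50%. Rsrp1 stays above 93%, while Spns1 and Brd9 spread over most of the axis.

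In these genes the main form was not the same in every library. Gckr, the regulator of glucokinase, had 0.0577, 5.27 and 14.4 FPKM retained, against 9.25, 27.7 and 0.110 FPKM spliced. Its share was 0.620, 16.0 and 99.2%, and it was named for this spread after its values were seen. Spns1, a lysosomal lipid transporter, had shares of 99.9, 7.02 and 90.2%, with 4.70, 0.359 and 2.53 FPKM retained, against 0.00605, 4.75 and 0.273 FPKM spliced. Ppox, which makes protoporphyrin in haem synthesis, had shares of 0.0764, 0.117 and 81.0%, with 0.00393, 0.00526 and 4.29 FPKM retained, against 5.14, 4.48 and 1.00 FPKM spliced. Brd9, a subunit of a BAF chromatin complex, had shares of 99.7, 12.3 and 21.6%. In 1 or 2 libraries of Gckr, Spns1, Ppox and Brd9 a form was listed near 0. With no read counts the error of such a value cannot be given. Clk3, which also moved by over 50 points, had no form below 0.987 FPKM.

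The introns of multi-intron events were short. Their median length was 297 bases over 987 introns, with quartiles of 137 and 733.5, against 425 bases over 2750 introns seen only in single-intron events. Other introns of coding transcripts of the same genes had a median of 649.5 bases over 6138. This last set includes first and last introns, which were part of only 2 and 1 of 486 multi-intron events. The part of position in the length difference was not tested. At most 300 bases were found in 50.1% of introns of multi-intron events, 39.8% of the single-intron set and 34.4% of the other introns. GC content was alike, with a median of 51.7% over the 625 introns of multi-intron events with sequence and 51.7% over 1601 of the single-intron set.

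**Figure D5:**
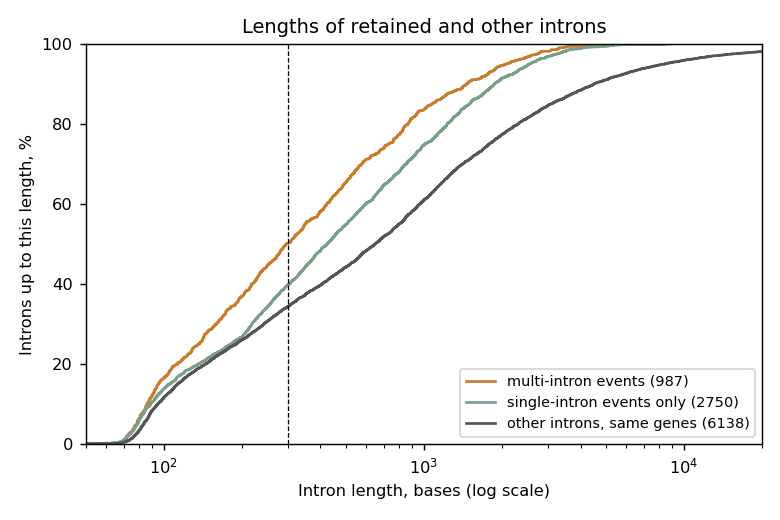
Percent of introns (vertical) up to a given length in bases (horizontal, log scale), with a dashed line at 300 bases, for introns of multi-intron events, introns of single-intron events only and other introns of the same genes. Medians are 297, 425 and 649.5 bases.

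Splice sites were of the usual kind. Of the 625 introns, 613 began with GT and ended with AG, 11 were GC-AG and 1 had other ends. Donor sites of 632 introns of multi-intron events matched the consensus CAGGTAAGT at 6.16 ± 1.06 of 9 positions, against 6.00 ± 1.13 for 1632 single-intron donors (SD over introns). The stretch before the acceptor was 75% pyrimidine at the median in both sets. In the Psme1 sequences printed earlier, the third intron is one of the GC-AG kind.

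Of 551 events with a spliced row of the same start and end, 467 spanned 2 introns (84.8%), 62 spanned 3 and 22 spanned 4 or more, up to 8. On the 486 events that lay on an annotated coding transcript, the first intron was part of the event in 2 and the last in 1. These transcripts had a median of 11 introns. In 545 of the 551 events the spliced form had the same outer exon ends as the retained exon. An event at the first or last intron therefore needs the same transcript start or end in both forms. The part of this in the position counts was not tested.

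In coding sequence, most events that could be read met a stop codon in a retained intron. Of 452 events wholly inside coding sequence, 288 in 227 genes could be read in frame. In 256 of these, or 88.9%, the first in-frame stop lay in a retained intron, in 246 of them in the first retained intron. It came a median of 35 bases into the first retained intron, with quartiles of 5.25 and 63. For 28 events the stop lay in an exon part, and 4 events, in Lmbr1l, Vps16 and S100pbp, read through with none. These are readings of the reference sequence, and the translation or decay of the transcripts was not measured. No rate for single-intron events or for other sequence was set beside them, so they cannot be called particular to these events.

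The annotation knew many of the retained exons. Of 545, 306 were exact GENCODE M21 exons (56.1%), 264 of them in transcripts of the retained intron class, 16 in the nonsense-mediated decay class and 7 in protein-coding transcripts. Events on annotated exons were listed in all 3 libraries in 240 of 401 cases (59.9%), and other events in 37 of 306 (12.1%). Among the tested events, 203 on annotated exons had a median share of 1.96 ± 0.222%, and 21 on unannotated exons 47.0 ± 6.99%, at median spliced levels of 5.63 and 1.96 FPKM. Annotated exons could be listed at far lower levels. Among events with no spliced form, the lowest value was 0.00012 FPKM on annotated exons and 0.390 FPKM on unannotated ones. The part of this entry limit in the shares and in the listing counts was not tested.

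Of the 90 events with no spliced form in any library, 27 were listed in all 3, and the genes named here were chosen after their values were seen. Apoc4, an apolipoprotein, had 273, 153 and 147 FPKM, the highest multi-intron value of each library. A second Rsrp1 exon had 149, 98.9 and 106 FPKM, and Fn1, fibronectin, 115, 109 and 93.2 FPKM. Xbp1, a transcription factor of the unfolded protein response whose mRNA is cut by IRE1, had 12.1, 17.4 and 14.2 FPKM, and Arglu1, a splicing coactivator, 9.64, 8.87 and 8.37 FPKM. Rrbp1 had 49.0, 49.5 and 55.5 FPKM and Son 12.8, 14.3 and 12.5 FPKM. The Rrbp1, Son and second Rsrp1 exons are all held by GENCODE M21 as exons of protein-coding transcripts, the Rsrp1 exon also of the retained intron class. For exons of protein-coding transcripts the word retention describes the tables' comparison and need not mean an unusual transcript. With no spliced form, these events had no ratio and no test.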

How the data were processed

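RNA from 3 liver samples of 1 group was sequenced. Each library came as 1 table of splicing events of FPKM values made by the authors (per the file headers) without counts, so depth is unknown and no counting interval could be given. Per the submitters' processing notes, DESeq2, HTSeq 0.6.1, HISAT2 2.0.1 and cutadapt 1.9.1 were used with the build mm9, in roles left unstated. The event caller is not given in the sources. Positions matched GENCODE M21 exons on GRCm38 and were read as GRCm38. The labels' protocols allow poly(A) selection or ribosomal RNA removal without saying which was used.

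Identical rows (1519, 1440 and 1485) were dropped, leaving 71716, 74243 and 74236. Events were matched between libraries by position, strand and pattern. Of the events, 620 were given to a gene by position, 83 by the tables' identifier, and 4 to none. One retained exon can carry several events, and its FPKM is then repeated. Introns and reading frames came from GENCODE M21, sequences from its transcripts.

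The log2 ratio of the forms, with a pseudocount of 0.1 FPKM and a minimum mean of 1 FPKM, was tested with limma 3.58.1 in R 4.3.3 (trend, robust prior), after a check on simulated data. Other work used Python 3.11.15 with pandas 2.3.3 and scipy 1.17.1. Alternatives were another spliced form, other filters and pseudocounts, unlisted values as 0, no replicate block, separate fits and each library left out.

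The named genes were, at 1 event per gene, the 8 highest in retained FPKM, up to 8 called with the highest and 8 with the lowest ratio, the 4 with most introns, and the top member of each list. Members, lists and this rule were chosen with earlier results of these data known. Splicing factor events were described in addition.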

Additional observations from a re-analysis of the deposited data

How the results depend on the processing

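The count of events lower in the retained form was 170 of 224 tested. It became 368 with unlisted values taken as 0 (557 events tested) and 110 with a 5 FPKM minimum (132 tested). With a spliced form of the same start and end it was 128 of 178. It was 166 of 253 without replicate 1, 170 of 255 without replicate 2 and 187 of 259 without replicate 3. All these runs change how many events are tested, so the counts alone are not comparable. The count of higher events was 5 and became 9 with unlisted values as 0, 10 with a pseudocount of 1 FPKM, 8 with a spliced form of the same start and end, and 5 to 12 without 1 library (12 without replicate 2 and 9 without replicate 3, with 4 of the main 5 in each). The median share of 3.19% was 2.47% with the spliced rows summed, 0.982% with unlisted values as 0, 1.36% with a 5 FPKM minimum, 4.46% with the same start and end, 3.92% with 1 event per exon, and 3.44 to 4.70% without 1 library. Events listed in every library were 277, and 137 at 0.1 FPKM or more. The cause of these changes was not tested except where the number of events tested changed. The multi-intron share stayed below the single-intron share in every alternative run in which this difference was computed, by 5.14 to 9.41 points. It was not computed with a 5 FPKM minimum, with a spliced form of the same start and end, or with 1 event per exon. Retained and spliced values come from 1 library, which pairs them; with no replicate block limma called 170 lower and 7 higher, which included the 5.

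Of the alternatives for the 29 named genes, 359 kept direction and call, 4 gained a call, 3 lost 1 and 3 changed sign. The 3 lost calls were those of Pnisr. The sign changed for Ganab (-0.91 to 0.26 without 1 library, positive without replicate 3), Spns1 (-0.29 to 4.16, negative without replicate 1) and Brd9 (-2.02 to 1.68, negative without replicate 1), none called with all libraries. Calls were gained for Spns1 without replicate 2 (4.16, adjusted p = 0.0147), for Ppox without replicate 3 (-5.55), and for Ccnl2 with summed spliced rows (-1.38, adjusted p = 0.023) and with a pseudocount of 1 FPKM. With no read counts, low values have no known error.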
